A study of Homo sapiens with 6 samples.

Results

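The nuclear pore complex genes described here are the 29 rows, of 13008 in the authors' comparison table, whose symbol is NUP followed by a digit or is 1 of a fixed set of other pore genes (AAAS, RANBP2, SEH1L, SEC13, TPR, NDC1, POM121, POM121C, RAE1 and AHCTF1). All 29 passed the filter on low values and were among the 13153 genes tested. Polyadenylated RNA was sequenced from Tet-FLAG-FOXM1c-hTERT-RPE1 cells, a telomerase-immortalised human retinal pigment epithelial line in which tetracyclines switch on a FLAG-FOXM1c transgene. The dox group (3 libraries, labelled FOXM1 overexpression) had 1 µg/mL doxycycline every 24 h for 48 h, and the no dox group (3 libraries, labelled WT) is labelled as having no treatment, although the protocol field reads the same on all samples. All libraries carry the same cell line label, and whether the line is 1 clone was not given in the sources used here. Doxycycline given to cells without the transgene was not analysed here, so effects of the drug and of FOXM1 cannot be told apart.

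Nuclear pores are the channels of the nuclear envelope through which proteins and RNA pass. Their scaffold is made of the Y complex (also called the NUP107-160 complex) and an inner ring, anchored in the membrane, and nucleoporins with phenylalanine-glycine repeats fill the channel. In mitosis the pores come apart, and the Y complex also localises to kinetochores, where it takes part in spindle microtubule attachment. Its subunit NUP133 is known to bind CENP-F, the protein named in the series title. FOXM1 is a forkhead transcription factor known for activating genes of late cell cycle phases.

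FOXM1 itself checks the labels. The authors' depth-equalised values, called normalised counts here, were 65289, 66830 and 74976 for FOXM1 in dox libraries, and in no dox libraries 5009, 4383 and 4292 (replicates 1, 2 and 3 in this order, as in all lists of values by library that follow). FOXM1 was thus 15.1-fold higher in dox (3.92 in log2 units, SE 0.10). Library totals lay between 15094498 and 49882123 reads, and between 172 (NUP35) and 9412 (TPR) reads stood behind a pore gene in a library. Of the markers fixed for the cell type, the epithelial keratins KRT8 and KRT18 and the pigment epithelium markers MITF and OTX2 were among the tested genes. BEST1 and PMEL, also pigment epithelium markers, were tested too but were low, with at most 0.066 and 0.028 FPKM in any library. The pigment epithelium genes RPE65, RLBP1 and TYRP1 had at most 0.220, 0.027 and 0.015 FPKM in any library, and the epithelial genes KRT19 and CDH1 at most 0.069 and 0.011, while EPCAM was listed at 0 in all of them. Of the mesenchymal genes, VIM and FN1 were abundant, CDH2, PDGFRB and COL1A1 were tested, and COL1A2 had at most 0.025 FPKM. No label says that libraries of a group came from separate cultures, so the p-values cover only variation among these samples, which may be technical.

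Without the replicate number in the model, no pore gene passed limma over all tested genes (0 of 29, against 0.54% of all genes, 0.319% higher and 0.22% lower in dox). At an unadjusted p under 0.05 there were 7 of 29 (24.1%), against 13.0% of all genes. Same-numbered dox and no dox libraries deviated from their group means together. With the replicate number as a block, 5 pore genes fell (NUP210, NUP62, NDC1, NUP160 and NUP153) and 2 rose (NUP93 and NUP133). These 7 are 24.1% of the members, against 22.5% of all genes called with the block. By direction, 17.2% of the members fell against 12.4% of all genes, and 6.90% rose against 10.2%. With the block, the share of pore genes called was near that of all genes. The median change of the 29 genes was -0.065 on the log2 scale, with pair medians of -0.080, -0.051 and -0.0032, and the median of all tested genes was -0.0022. Without dox replicate 1 or no dox replicate 2 it was -0.0048 and -0.0083. In the authors' deposited table, 2 of the 29 genes had an adjusted p under 0.05, NUP210 (0.0103) and NUP62 (0.0397), or 6.90% against 2.78% of its genes. The authors' own columns for genes up or down mark only 97 and 106 of the 13008 genes in that deposited table, and 0 of the 29. With so few genes marked, 0 of 29 is not a result about the pore genes. The marked genes had authors' adjusted p-values of at most 0.00982, which NUP210 and NUP62 did not reach.

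Most markers of proliferating cells moved in the direction of the 5 falls and not of the 2 rises. Of 9 such genes, 6 fell with the block (66.7%, against 12.4% of all genes) and none rose. Without the block 1 fell, BIRC5 (0.22% of all genes fell). The median log2 change of the 9 was -0.35. Their summed normalised counts ran from 30693 to 44257 in dox and from 44578 to 51815 in no dox libraries. Both tested epithelial markers, KRT8 and KRT18, rose with the block by 0.29 and 0.32 on the log2 scale (limma adjusted p = 0.00111 and 0.000804, and 0.569 and 0.621 without the block). Their summed normalised counts ran from 25078 to 37227 in dox and from 20359.5 to 30159.7 in no dox libraries. The part of either marker list in the changes of the pore genes was not tested. In bulk RNA, fewer cells of a kind and less RNA per cell cannot be told apart.

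**Figure D1:**
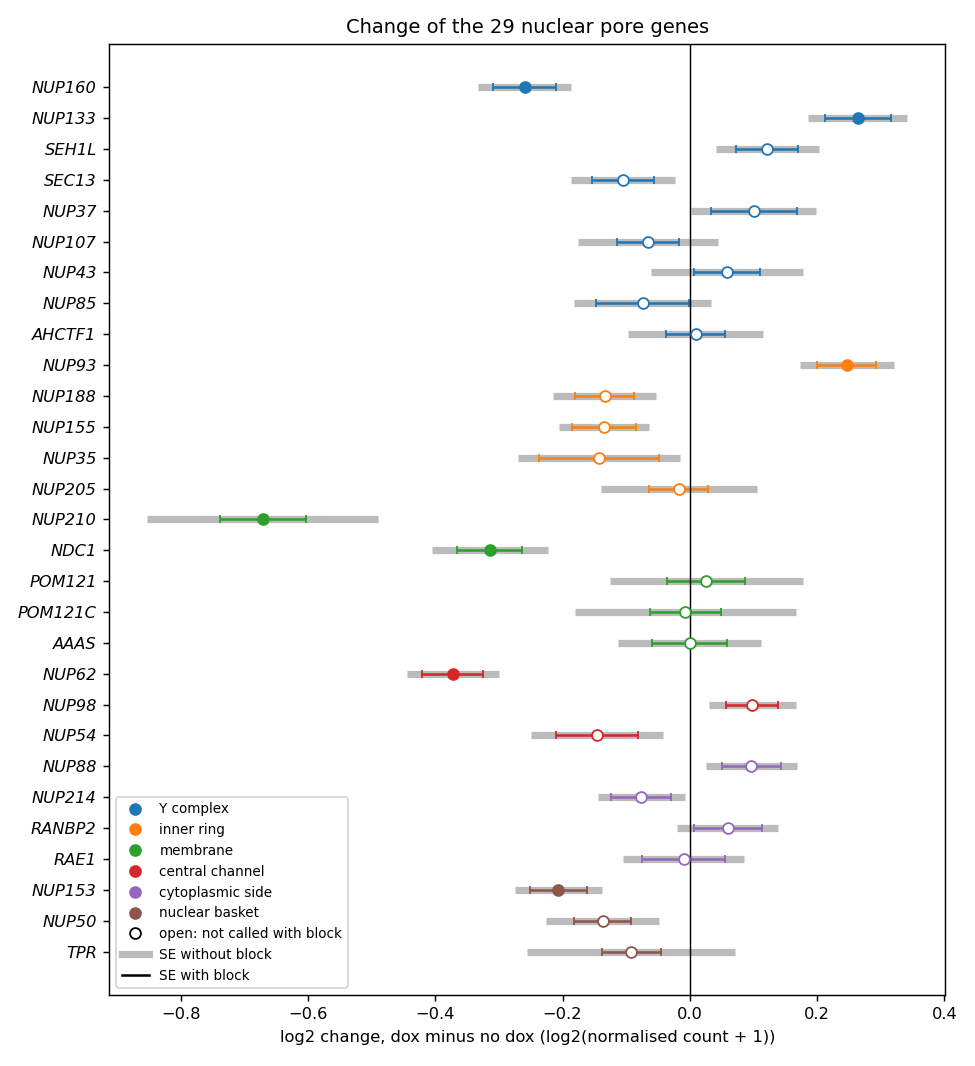
Log2 change (dox minus no dox, on log2(normalised count + 1)) of each of the 29 pore genes, coloured by role, with the limma SE without the block (grey bars) and with it (thin bars). Filled points mark the 7 genes called with the block, which run from -0.67 (NUP210) to 0.26 (NUP133), and the open points lie between -0.15 and 0.12.

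The Y complex is the outer scaffold. Of its 9 genes (counting AHCTF1, its anchor to chromatin), NUP160 fell and NUP133 rose with the block, and 7 did not pass. The median change of the 9 was 0.0092 on the log2 scale. NUP133 and NUP160 both belong to this scaffold, with opposite directions in all 3 pairs.

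NUP133 (ENSG00000069248), the CENP-F partner, lies on chromosome 1 from 229577045 to 229644103 of hg19. It had 1944, 1927 and 2043 normalised counts in dox libraries, against 1529, 1740.1 and 1661 in no dox. The lowest dox value exceeded the highest no dox value. The means were 1971 ± 62.5 and 1643 ± 106 (SD, n = 3 each), a rise of 20.1% or 0.26 on the log2 scale (SE 0.05 with the block, limma adjusted p = 0.00638). Without the block its adjusted p was 0.190. CENPF, beside it, had 5786, 10173 and 7168 normalised counts in dox and 5822, 8071 and 6358 in no dox libraries, with groups that overlap. Exons of AL160004.1, a noncoding gene on the same strand, cover 7.86% of the exonic bases of NUP133. Of the 50-base words of the principal transcript of NUP133, 7.39% also occur in transcripts of AL160004.1, which leaves the NUP133 counts less certain.

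NUP160 (ENSG00000030066), a large subunit of the Y complex, lies on chromosome 11 from 47799639 to 47870107. The dox libraries had 1141, 1143 and 1087 normalised counts of it, and the no dox libraries 1401, 1349.8 and 1288. The groups did not overlap, with all dox libraries below. NUP160 fell by 16.5%, a log2 change of -0.26 (SE 0.05 with the block, limma adjusted p = 0.00520, and 0.181 without it). Per kilobase of transcript, the ratio of NUP133 to NUP160 was 1.76, 1.74 and 1.94 in dox and 1.13, 1.33 and 1.33 in no dox libraries. This pair was chosen after its values were seen, so the ratio is a description.

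The other Y complex genes did not pass with or without the block. SEH1L had 1943, 1667 and 1827 normalised counts in dox and 1714, 1620.3 and 1654 in no dox libraries, higher in all 3 pairs (log2 difference 0.12, SE 0.05 with the block, limma adjusted p = 0.103). SEC13, which is also a coat protein of vesicles leaving the endoplasmic reticulum, had 3808, 3604 and 3832 against 4421, 3856 and 3840.4. Its dox libraries all lay below the no dox libraries, with log2 differences from -0.22 in pair 1 to -0.0032 in pair 3 (adjusted p = 0.155 with the block). The groups overlapped for SEH1L and for the remaining 5 genes. NUP107, which gives the complex its name, had 1169, 1429.7 and 1219 against 1211, 1481 and 1302, a difference of -0.065 (SE 0.05 with the block). Replicate 2 was the highest library in each group for NUP107.

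NUP85 had 704.9, 898.3 and 843.3 normalised counts in dox and 860.7, 894.3 and 809.3 in no dox, lower in pair 1 and slightly higher in the other pairs. NUP43, a peripheral propeller subunit, had 1045, 1058 and 865.7 against 1027, 997.3 and 828.2. NUP37 had 683.1, 814.9 and 800.8 against 707.4, 751.8 and 680.4, lower in pair 1 and higher in the other pairs. AHCTF1 (ELYS), which starts pore assembly on chromatin after mitosis, had 1448, 1541 and 1726 against 1416, 1520.2 and 1756. Its difference of 0.0092 (SE 0.05 with the block) turned negative without dox replicate 3 or no dox replicate 1 (-0.060 for each). Of the 50-base words of its principal transcript, 49.95% also occur in transcripts of other genes (AHCTF1P1 and KIF28P), so its counts are uncertain.

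**Figure D2:**
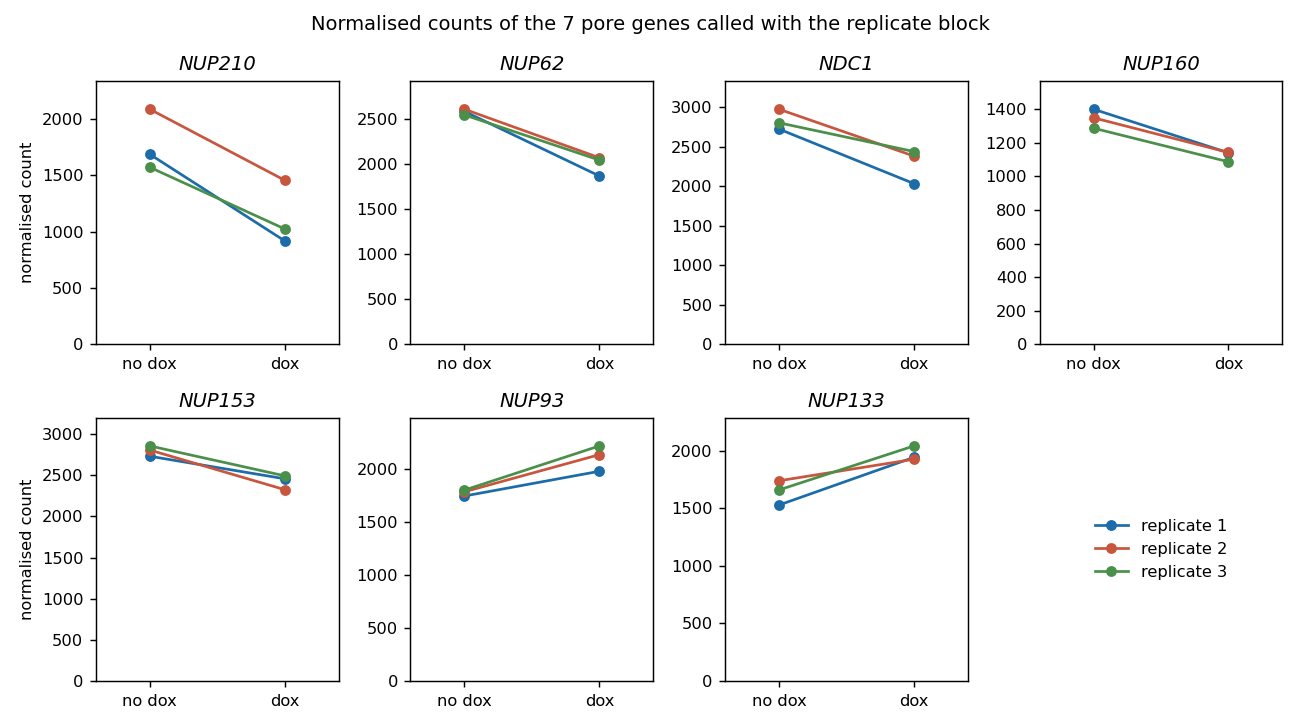
Normalised counts (vertical axes, each from 0) of the 7 genes called with the replicate block, with no dox on the left and dox on the right, and 1 line for each replicate number. All 3 lines go down for NUP210, NUP62, NDC1, NUP160 and NUP153 and up for NUP93 and NUP133.

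In the membrane ring NUP210 and NDC1 fell with the block, and POM121, POM121C and AAAS did not pass. NUP210 (ENSG00000132182), the transmembrane nucleoporin whose bulk lies in the lumen of the envelope, lies on chromosome 3 from 13357737 to 13461809. It had 918.5, 1457 and 1025 normalised counts in dox libraries, and 1688, 2089 and 1573 in no dox libraries. The dox libraries were all lower, with replicate 2 the highest in both groups. NUP210 fell by 37.2%, the largest change of the 29 genes, or -0.67 on the log2 scale (SE 0.07 with the block, limma adjusted p = 0.000226). Pair 1 fell by 0.88, pair 2 by 0.52 and pair 3 by 0.62. The SE without the block was 0.18 and the adjusted p 0.155.

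NDC1 (ENSG00000058804), the transmembrane nucleoporin that holds ALADIN at the pore, lies on chromosome 1 from 54231133 to 54304533. Its normalised counts were 2035, 2384 and 2441 in dox and 2726, 2977 and 2805 in no dox libraries. No dox library reached the no dox range. NDC1 fell by 19.6%, or -0.31 on the log2 scale (SE 0.05 with the block, limma adjusted p = 0.00242, and 0.184 without it). AAAS, which encodes ALADIN, the protein mutated in triple A syndrome, had 960.2, 1147 and 1186 in dox against 999.6, 1211 and 1079 in no dox. Its group means were 1098 ± 121 and 1097 ± 107 (SD, n = 3 each), and the sign of its difference depends on the scaling (0.0082 with TMM scaling).

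POM121 and POM121C encode near-identical transmembrane nucleoporins on chromosome 7, from 72349936 to 72421979 and from 75046066 to 75115548. Of their principal transcripts' 50-base words, 63.3% occur in other genes' transcripts, each other's among them, so how reads were divided between them is uncertain. POM121 had 877.4, 947.1 and 1279 normalised counts in dox and 927.7, 957.3 and 1134 in no dox. POM121C had 795.5, 835.8 and 1161 in dox and 840.7, 831.5 and 1119.9 in no dox. Replicate 3 stood above the other libraries of its group for both genes, in dox and in no dox alike. The limma adjusted p with the block was 0.798 for POM121 and 0.944 for POM121C.

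The 250 bases upstream of the start site are shown for 4 called genes: NDC1 and NUP153, which fell and hold the letters TTTGAA, and NUP210 and NUP133, the largest fall and the largest rise, which do not. TTTGAA is the core of the CHR element known from promoters of late cell cycle genes, and capitals mark it on either strand (TTCAAA on the printed strand is the reverse). Sequences are from RefSeq (GRCh38.p14), 5′ to 3′ on the gene's strand, which is the minus strand for all 4.
NDC1, chr1:53838297-53838546: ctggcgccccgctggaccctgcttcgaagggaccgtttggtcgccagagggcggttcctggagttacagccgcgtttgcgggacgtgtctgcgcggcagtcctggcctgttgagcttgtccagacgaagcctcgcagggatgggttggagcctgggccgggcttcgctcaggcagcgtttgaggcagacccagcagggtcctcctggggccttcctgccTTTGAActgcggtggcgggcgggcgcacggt
NUP153, chr6:17706926-17707175: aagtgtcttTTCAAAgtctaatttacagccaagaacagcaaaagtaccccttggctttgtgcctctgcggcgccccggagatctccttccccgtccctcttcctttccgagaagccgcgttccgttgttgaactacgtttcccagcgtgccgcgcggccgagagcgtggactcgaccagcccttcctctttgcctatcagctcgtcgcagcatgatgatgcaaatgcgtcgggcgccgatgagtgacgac
NUP210, chr3:13420323-13420572: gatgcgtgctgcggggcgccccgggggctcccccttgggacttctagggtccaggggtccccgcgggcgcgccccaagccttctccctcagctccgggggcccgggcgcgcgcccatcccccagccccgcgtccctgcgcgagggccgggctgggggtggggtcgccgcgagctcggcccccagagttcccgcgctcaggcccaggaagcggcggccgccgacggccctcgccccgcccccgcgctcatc
NUP133, chr1:229508342-229508591: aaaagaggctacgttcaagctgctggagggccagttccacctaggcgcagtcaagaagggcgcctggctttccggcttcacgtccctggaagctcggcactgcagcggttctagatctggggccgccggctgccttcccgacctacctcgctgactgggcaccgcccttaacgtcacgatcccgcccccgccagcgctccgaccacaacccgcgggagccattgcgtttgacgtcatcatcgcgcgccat
The CHR match of NDC1 begins 31 bases before the start site and that of NUP153 241 bases before it.

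Of the 29 genes, 27 were matched to upstream windows by symbol. TTTGAA was found on either strand in windows of 7 of them (NDC1, NUP153, NUP205, NUP35, NUP37, NUP93 and NUP98), and in 13.3% of all 35116 windows. Of the 7 genes with TTTGAA, NDC1 and NUP153 fell, NUP93 rose and the other 4 did not pass. The forkhead letters GTAAACA were in no member's window (2.98% of all windows), and neither were TTTCGCGC or TTTGGCGC, letters of E2F sites (0.968% of all windows). CCAAT, bound by the factor NF-Y, was found for 9 members and in 32.0% of windows. All letters were searched on both strands, and no TTTGAA match of a member shared bases with a match of another motif (0 members). A match is a run of letters and not a shown binding site, and a missing match covers only this window.

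The central channel is lined by nucleoporins with phenylalanine-glycine repeats. NUP62 (ENSG00000213024), the core of the channel trimer, lies on chromosome 19 from 50410082 to 50433020. It had 1867, 2069 and 2043 normalised counts in dox libraries, and 2583, 2607 and 2544 in no dox. The no dox libraries were close together and every dox library lay below them. The means were 1993 ± 110 and 2578 ± 32.1 (SD, n = 3 each). NUP62 fell by 22.8%, or -0.37 on the log2 scale (SE 0.05 with the block, limma adjusted p = 0.000707). Its adjusted p of 0.0761 without the block was the smallest of the 29 genes. Exons of other genes cover 21.1% of its exonic bases, those of ATF5 on the opposite strand and IL4I1 on the same strand among them, and strand use in the counting was not given in the sources used here. Of the 50-base words of its principal transcript, 18.9% occur in transcripts of other genes, IL4I1 among them, so its values are uncertain to that extent. ATF5 had 1035, 613.5 and 753.5 in dox and 1084, 748.8 and 709.9 in no dox libraries, with overlapping groups.

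NUP54, a partner of NUP62 in the trimer, had 824.6, 978.1 and 1027 normalised counts in dox and 994.0, 1108 and 1019 in no dox. The groups overlapped, and the log2 difference was -0.15 (SE 0.06 with the block, limma adjusted p = 0.133). NUP98, whose precursor also yields the Y complex subunit NUP96, had 3984, 3982 and 3852 against 3691, 3821 and 3532. Its dox libraries all lay above the no dox libraries. The log2 difference of the groups was 0.098 (SE 0.04 with the block), and it did not pass (limma adjusted p = 0.117 with the block).

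The inner ring connects the scaffold to the channel. NUP93 (ENSG00000102900), its organising subunit, lies on chromosome 16 from 56764017 to 56878797. It had 1977, 2134 and 2216 normalised counts in dox and 1744, 1784 and 1799.6 in no dox libraries. Each dox library was above all no dox libraries. The rise was 18.6%, or 0.25 on the log2 scale (SE 0.05 with the block, limma adjusted p = 0.00520, and 0.195 without it). Its call was lost without replicate 2 (adjusted p = 0.0531 with the block).

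NUP93 was the 1 inner ring gene of 5 with a positive change, and none of the others passed. NUP188 had 2731, 3163 and 2811 in dox against 3175, 3297 and 3064 in no dox (log2 difference -0.13, limma adjusted p with the block 0.0636). NUP155 had 1737, 1702 and 1787 against 1993, 1915 and 1833, with all dox libraries lower and a log2 difference of -0.13 (adjusted p with the block 0.0804). NUP205, a large scaffold protein, had 2536, 3349.7 and 3031 against 2731, 3346 and 2919, following the replicate number more than the group. NUP35 was the least abundant, with 331.4, 353.1 and 303.9 against 422.9, 329.4 and 343.8.

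At the nuclear basket NUP153 fell with the block, and NUP50 and TPR did not pass. NUP153 (ENSG00000124789), which docks import complexes and the basket filaments, lies on chromosome 6 from 17615269 to 17706656. Its normalised counts were 2458, 2325 and 2493 in dox and 2731, 2807 and 2857 in no dox libraries, without overlap. NUP153 fell by 13.3%, or -0.21 on the log2 scale (SE 0.04 with the block, limma adjusted p = 0.00965, and 0.246 without it). The call was lost without replicate 2 (adjusted p with the block 0.124) and without replicate 3 (0.0518). An antisense gene covers 9.25% of the exonic bases of NUP153, and its reads could not be told apart without strand. NUP50, an import cofactor bound to NUP153, lay just outside the threshold (adjusted p = 0.0528 with the block). It had 2349, 2539 and 2768 in dox and 2601, 2899 and 2911 in no dox, lower in all 3 pairs. The log2 difference of the groups was -0.14 (SE 0.04 with the block), and 0.0270 was its limma adjusted p with the block without replicate 1. Other genes' transcripts share 15.3% of its 50-base words, which leaves its counts less certain.

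TPR, the filament protein of the basket, varied with the replicate number. It had 3896, 5237 and 3948 normalised counts in dox and 3872, 5639 and 4466 in no dox, with replicate 2 highest in both groups. Its log2 difference of -0.092 had an SE of 0.16 without the block and 0.05 with it (limma adjusted p with the block 0.192).

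None of the 4 genes of the cytoplasmic side was called (limma adjusted p-values with the block from 0.171 to 0.932). NUP214 and NUP88 form the platform for messenger RNA export factors. NUP214 had 1546, 1550.4 and 1561 normalised counts in dox and 1644, 1690.1 and 1580.3 in no dox. Every dox library was lower, and the log2 difference of the groups was -0.077. NUP88 had 1620.2, 1711 and 1767 against 1549, 1614 and 1602, higher in every dox library, with a log2 difference of the groups of 0.096. Exons of RPAIN and RABEP1, on the opposite strand, cover 18.7% of the exonic bases of NUP88, which leaves its counts less certain. RANBP2, the long filament protein with SUMO ligase activity, had 3637, 3582 and 3550.4 against 3143, 3568 and 3642. Its copies of the RGPD family share 26.6% of its 50-base words with it, so its values are uncertain. RAE1, an export factor that binds NUP98 and the spindle, had 895.9, 913.1 and 897.1 against 943.0, 985.0 and 806.2, a difference of -0.0097 that changes sign with FPKM values (0.017).

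Over the 29 genes, 11 were lower in all 3 pairs, 6 were higher in all 3 and 12 were mixed. The groups did not overlap for 41.4% of them (4 higher and 8 lower in dox), against 19.1% of all tested genes. The same replicate number was highest in both groups for 16 of 29 genes (55.2%, against 65.2% of all genes). It was replicate 1 for 1 of them, replicate 2 for 9 (NUP107, NUP205, NUP210 and TPR among them) and replicate 3 for 6 (POM121, POM121C and AHCTF1 among them). Of the 8582 such genes among all tested genes, it was replicate 1 for 3583, replicate 2 for 2677 and replicate 3 for 2322.

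**Figure D3:**
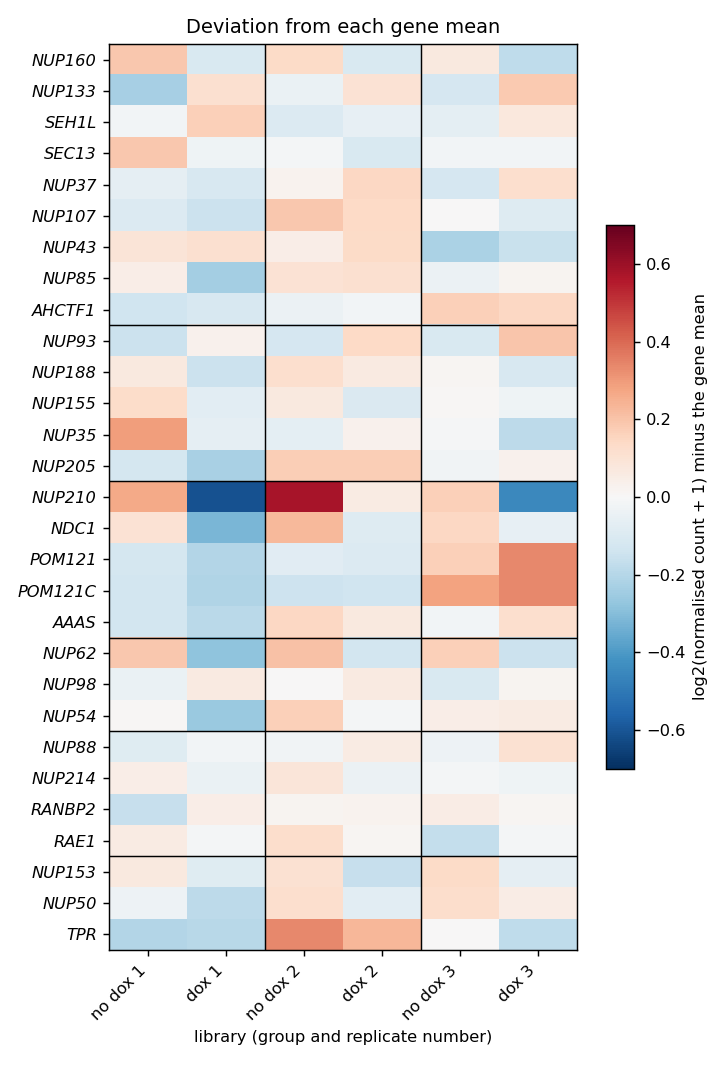
Deviation of each pore gene from its own mean over the 6 libraries, as log2(normalised count + 1), with libraries in columns by replicate number and genes in rows by role (Y complex at the top, then inner ring, membrane, channel, cytoplasmic side and basket). NUP210, NDC1 and NUP62 are lower in the dox column of each pair, while TPR is high in both libraries of replicate 2 and POM121C in both of replicate 3.

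Levels were compared between genes per kilobase of principal transcript. The gene width in the authors' comparison table was a median of 4.41 times the principal transcript length over the 29 genes. Whether the FPKM values were computed from that width was not tested. In the median over all genes the width equals the summed length of all GENCODE transcripts, but it departs from this sum for some members, such as NDC1 and NUP153. By principal transcript length, SEC13 was the highest in no dox libraries, with 2835 ± 232 normalised counts per kilobase (SD, n = 3), followed by SEH1L with 901 ± 25.6. Both proteins also work outside the pore, in the GATOR2 complex. NUP62 (718 ± 8.93) and NUP93 (648 ± 10.5) came next. POM121C was the lowest, with 160 ± 28.1, below AHCTF1 with 181 ± 20.2 and POM121 with 184 ± 20.4. The counts are per gene, and all exons of a gene together are longer than its principal transcript. They span 5446 against 1425 bases for SEC13, 10481 against 1846 for SEH1L and 11136 against 2741 for NUP93. The levels and their order therefore depend on the length taken.

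By principal transcript length, the range from the lowest to the highest gene was 17.8-fold, and the SDs do not cover the choice of length. Without SEC13 and SEH1L, the other 7 Y complex genes lay between 181 (AHCTF1) and 403 (NUP85) per kilobase, with a median of 250.4. The basket genes lay close together, from 480 (TPR) to 536 (NUP50). Of the 28 neighbouring pairs in this order, the no dox libraries of 5 did not overlap, and the other 23 neighbours did not differ beyond their spread. NUP210 had 248 ± 37.7 per kilobase in no dox and 158 ± 39.7 in dox libraries (SD, n = 3 each), and NUP62 had 718 ± 8.93 and 555 ± 30.7. The mean normalised count in no dox lay above the median of all tested genes for 27 of the 29.

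**Figure D4:**
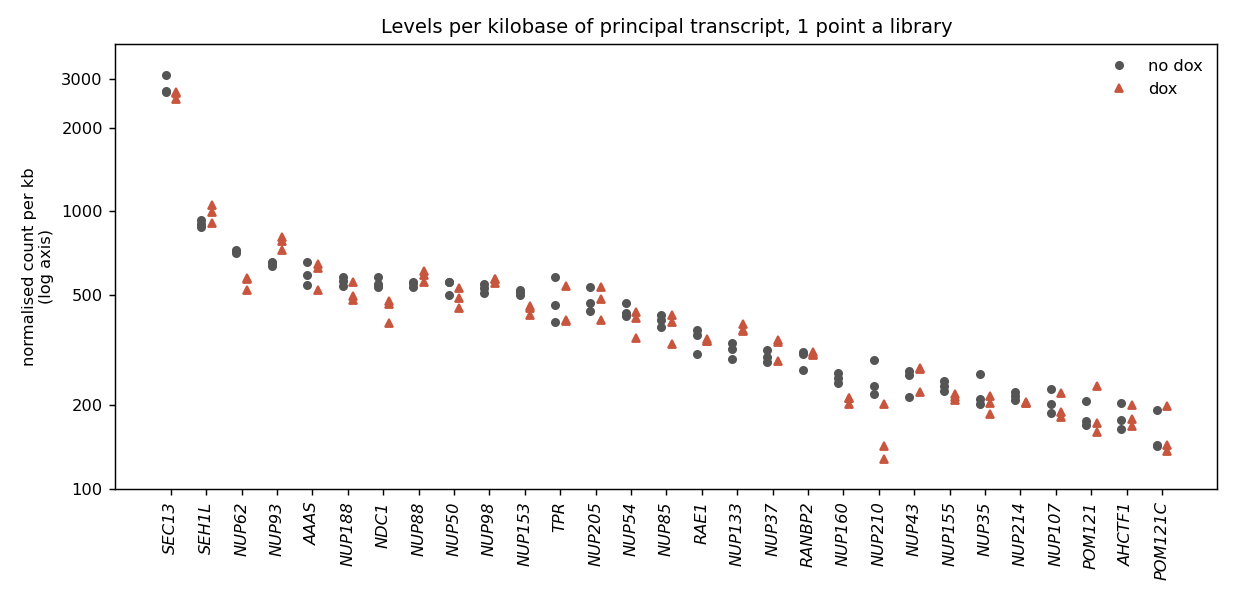
Normalised counts per kilobase of principal transcript (log axis) for the 29 pore genes in order of their no dox mean, with 1 point for each library (circles no dox, triangles dox). SEC13 stands apart at the top, and the dox points of NUP210 lie below its no dox points.

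The transport machinery that uses the pores was described with a list of 47 symbols, of which 44 were tested. Of the others, NUP58 and NUP42 are newer symbols of NUPL1 and NUPL2, which were tested, and KPNA7 was not tested. It holds importins, exportins, the Ran cycle, export and SUMO factors, and pore genes with older symbols that the naming pattern does not take in. None passed without the block. With it 8 fell and 1 rose, 20.5% of the list against 22.5% of all genes, and the median log2 change was -0.072. By direction, 18.2% of the list fell against 12.4% of all genes, and 2.27% rose against 10.2%. Of 44 genes 35 had a negative change, against 50.6% of all genes. From FPKM values with the block 2 genes of the list were called, and without replicate 2 also 2.

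NUPL1 (NUP58), the remaining partner of NUP62 and NUP54 in the channel trimer, had 2254, 2343 and 2183 normalised counts in dox and 2701, 2635 and 2509 in no dox libraries. All dox libraries were lower, and it fell by 0.21 on the log2 scale (SE 0.04 with the block, limma adjusted p = 0.00835). XPO4, an exportin, was the 1 gene that rose, with 1383, 1278 and 1337 against 1083, 1109 and 1156 (log2 change 0.26, adjusted p = 0.00839). RANBP1, a cofactor of Ran's GTPase activation, had 2397, 2874 and 2967 against 3409, 3335 and 3164, and fell (-0.27, adjusted p = 0.0201). The importin IPO13 (-0.24), the export and chromatin factor ENY2 (-0.18) and the SUMO protease SENP1 (-0.23) also fell, with adjusted p-values with the block from 0.00953 to 0.0156. The others that fell, IPO5 and SENP2, are outside the rule for named genes and were picked out after their values were seen.

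RANGAP1, the GTPase activator of Ran that RANBP2 holds at the pore, fell with the block (-0.19, limma adjusted p = 0.0307). It had 9342, 7856 and 8121 normalised counts in dox and 11799, 8854 and 8457 in no dox libraries, lower in each pair but with overlapping groups. RAN itself had 13020 ± 1386 in dox and 13296 ± 861 in no dox libraries and did not pass (adjusted p = 0.648). RCC1, the nucleotide exchange factor of Ran, changed by -0.14 (adjusted p = 0.151), the importin beta gene KPNB1 by -0.083 (0.303) and the main exportin gene XPO1 by -0.052 (0.472), none of which passed. The pore genes NUPL2 (NUP42; 0.19, adjusted p = 0.0695) and GLE1 (-0.034, 0.659) did not pass either.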

How the data were processed

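Titles gave each library's group and number. The tools bcl2fastq, Trimmomatic, TopHat and edgeR and the build hg19 are named, with no version, per the submitters' processing notes. Strand and multi-mapping settings: not given in the sources used here. The authors deposited depth-equalised counts (a signal that is not whole-numbered) for 13161 genes, of which 13153 were tested on these values. They also deposited FPKM values, and a comparison table with CPM per library, log2 fold changes, a likelihood ratio score, p-values and other columns, per the file headers. All CPM values are whole multiples of 1 read (tolerance 0.01), which gave the library totals, but 3 libraries hold under 100 values of at most 20 reads, so no count test was run.

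The test was limma-trend (limma 3.58.1, R 4.3.3) on log2(normalised count + 1), two-sided, for the 13153 genes that reached 10 normalised counts in 3 or more libraries, with Benjamini-Hochberg adjusted p under 0.05 over all of them. The correlation over genes of paired libraries' deviations (value minus group mean) was 0.745, 0.726 and 0.768, so the numbers were taken to pair the libraries. The labels do not say what they share. Fits with the number as a block (2 residual degrees of freedom) stand beside those without (4). The pore genes and lists were chosen with earlier results of these data known. All members were named, and of the transport list the 6 with the smallest p with the block beside a fixed set. Transcript lengths, 50-base words and exon overlaps came from GENCODE 29 by gene ID (POM121C by symbol), without coordinates. The fits were also run on simulated data, whose planted changes were larger than those of all called pore genes but NUP210. Changes of the size of the other called pore genes were not simulated. Python 3.11.15 was used for the rest.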

Additional observations from a re-analysis of the deposited data

How the results depend on the processing

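The count of pore genes called was 0 under every setting without the block and 7 with the replicate block, also with TMM scaling or FPKM values added to the block, also 0 without any 1 library, and with the block 10, 5 and 6 without replicates 1, 2 and 3. NUP210, NUP62, NDC1, NUP160 and NUP133 were called in all 6 fits with the block, NUP93 in 5 and NUP153 in 4. NUP37, NUP50 and TPR were called only without replicate 1. Transport genes called numbered 9 with the replicate block, 8 with TMM scaling and the block, 2 with FPKM and the block, 0 without any 1 library, and with the block 13, 2 and 6 without replicates 1, 2 and 3. Over all genes 2965 were called with the replicate block, 2978 with TMM scaling added, 2081 with FPKM added, 31 from FPKM without the block, 3 to 21 without single libraries, and with the block 3835, 1414 and 1779 without replicates 1, 2 and 3. The pore gene median ran from -0.095 to -0.0048 without single libraries, and was -0.016 without replicate 1 with the block. FOXM1 passed under every setting.

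Signs turned only for genes whose log2 difference over all 6 libraries lay between -0.092 (TPR) and 0.060 (RANBP2). With FPKM values, with or without the block, AAAS was 0.026, NUP205 0.0097, POM121C 0.019 and RAE1 0.017. With TMM scaling, with or without the block, AAAS was 0.0082 and POM121C 0.0015, and AAAS was 0.0055 with median-of-ratios scaling. Without single libraries the ranges were -0.065 to 0.093 (AAAS), -0.060 to 0.095 (AHCTF1), -0.15 to 0.014 (NUP107), -0.11 to 0.093 (NUP205), -0.038 to 0.15 (NUP43), -0.15 to 0.027 (NUP85), -0.14 to 0.13 (POM121), -0.18 to 0.13 (POM121C), -0.095 to 0.049 (RAE1), -0.0062 to 0.10 (RANBP2) and -0.23 to 0.054 (TPR). With the block, without replicate 1, AAAS was 0.029, AHCTF1 -0.0026, NUP205 0.028, NUP85 0.033, POM121C 0.030, RAE1 0.022 and RANBP2 -0.016. Without replicate 2, AAAS was 0.039 and RAE1 0.040, and without replicate 3 POM121 was -0.048. The cause was not tested. The edgeR and DESeq2 alternatives were not run. Fits with the block and with pairs left out, or with TMM scaling or FPKM, were added after the data were seen. With 2 pairs left, 1 residual degree of freedom remains and the spread is mostly that shared over genes.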

Other observations

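The FPKM table also lists 2 pore paralogs that are outside the tested genes. NUP210L, a paralog of NUP210, had at most 0.0118 FPKM in any library, and NUP62CL, a paralog of NUP62, was listed at 0 in all 6.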
